A study of Homo sapiens with 44 samples.

Results

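The forkhead box (FOX) and SRY-related box (SOX) transcription factor families were examined in ZR-75-1, a luminal line derived from human breast cancer, which carries receptors for estrogen and progesterone. Members were all annotated gene symbols that start with FOX, a letter from A to S and a digit, or with SOX and a digit, and 3 forkhead symbols were left out. The rule gave 64 symbols out of 14884 named in the table. Of these, 40 are FOX factors and 19 are SOX factors. The other 5 carry a factor's name without being a factor themselves, namely SOX2-OT, a long RNA that overlaps SOX2, FOXD2-AS1, FOXL2NB and 2 antisense RNAs of a gene left out.

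The study asked how cells primed with estrogen respond to progestins. All 44 arrays held RNA of this line, in 14 groups. In 13 groups the cells had been pretreated with 10 nM estradiol (E2) for 72 h and are called E2p. They then received 10 nM medroxyprogesterone acetate (MPA) or 10 nM progesterone (P4) for 4, 8 or 16 h, 10 nM E2 together with 10 nM MPA or with 10 nM P4 for 16 h, 10 nM E2 alone for 16 h, or ethanol vehicle (V) for 0, 4, 8 or 16 h. Unprimed cells had ethanol for 72 h and vehicle for a further 16 h. Hormone was laid over the medium already present, so every E2p group still had its priming E2 when the overlay began, and the label of the 0 h vehicle names another ethanol dilution than the later vehicles. Each group had 3 arrays apart from E2p E2+P4 16 h, which had 5. Replicates are numbered in the labels with no word on whether they were separate cultures, so a p-value here reflects only how these samples scatter, and that scatter may be technical. MPA is a synthetic progestin with an added methyl and an added acetoxy group on the progesterone skeleton.

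Forkhead factors bind DNA through a winged helix domain. The FOXA subfamily can open closed chromatin and is best known in breast for its part in estrogen receptor binding, FOXO factors are held out of the nucleus by insulin and growth factor signalling, FOXM1 drives genes of mitosis, and FOXP factors mostly repress transcription. SOX factors bend DNA through a high mobility group domain and usually act with a partner. SOX2 maintains stem cells together with POU5F1, SOX9 and SOX4 are known in mammary progenitor cells, and SOX5, SOX6 and SOX13 form a group that lacks an activation domain of its own.

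Promoters are shown for 5 members described below, 3 that fell under progestins (SOX2, SOX5 and FOXI1) and the paralogs FOXP4 and FOXP1, which moved in opposite directions. Each is the run of 250 bases before the annotated start, read 5′ to 3′ on the strand of the gene from RefSeq (GRCh38.p14), at chr3:181711675-181711924 on the plus strand for SOX2, chr12:24562492-24562741 on the minus strand for SOX5, chr5:170105647-170105896 on the plus strand for FOXI1, chr6:41546131-41546380 on the plus strand for FOXP4 and chr3:71132198-71132447 on the minus strand for FOXP1, which has 6 annotated starts in the table. Capitals mark ACAAAG or ACAATG, the core bound by SOX factors, GTAAACA, the core bound by forkhead factors, and AGAACA, the unit that the progesterone receptor binds as a pair, on either strand.
SOX2: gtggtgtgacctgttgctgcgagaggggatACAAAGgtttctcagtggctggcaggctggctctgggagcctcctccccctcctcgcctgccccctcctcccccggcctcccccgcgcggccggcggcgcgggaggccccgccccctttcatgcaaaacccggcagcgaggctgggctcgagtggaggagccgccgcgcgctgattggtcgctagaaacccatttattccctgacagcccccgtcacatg
SOX5: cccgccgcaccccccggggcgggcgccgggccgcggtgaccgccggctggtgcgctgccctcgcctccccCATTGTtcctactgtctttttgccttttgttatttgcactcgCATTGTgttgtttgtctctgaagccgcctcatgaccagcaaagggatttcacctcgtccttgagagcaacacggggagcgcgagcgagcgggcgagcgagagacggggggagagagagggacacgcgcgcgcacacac
FOXI1: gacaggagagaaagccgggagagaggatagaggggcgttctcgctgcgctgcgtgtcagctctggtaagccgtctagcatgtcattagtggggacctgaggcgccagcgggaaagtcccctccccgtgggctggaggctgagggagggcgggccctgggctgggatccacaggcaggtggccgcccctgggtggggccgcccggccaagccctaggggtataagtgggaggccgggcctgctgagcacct
FOXP4: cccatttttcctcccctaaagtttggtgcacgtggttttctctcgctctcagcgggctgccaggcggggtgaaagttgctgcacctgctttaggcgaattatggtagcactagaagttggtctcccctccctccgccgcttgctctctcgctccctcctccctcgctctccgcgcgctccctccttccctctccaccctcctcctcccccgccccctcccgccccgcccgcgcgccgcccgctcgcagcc
FOXP1: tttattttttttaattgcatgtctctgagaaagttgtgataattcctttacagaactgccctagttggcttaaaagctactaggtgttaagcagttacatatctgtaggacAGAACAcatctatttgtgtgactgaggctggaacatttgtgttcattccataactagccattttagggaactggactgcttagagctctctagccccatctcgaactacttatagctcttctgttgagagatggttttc
The SOX2 promoter held ACAAAG 220 bases before the start, and the SOX5 promoter held the reverse complement of ACAATG 180 and 138 bases before it. AGAACA stood 139 bases before the FOXP1 start shown. Of the 6 FOXP1 starts, this one was picked because its window held AGAACA, so that match was fixed by the choice. Windows of other FOXP1 starts, not shown, held GTAAACA and ACAATG. Of the 64 members, 45 had a promoter in the table, and SOX9, FOXJ1 and FOXN2 had none. Of 35116 promoter windows of the same length, 12.4% held AGAACA, 13.7% ACAAAG, 9.29% ACAATG and 2.98% GTAAACA. The 63 windows of members held them in 7.94%, 11.1%, 12.7% and 4.76%. The core of the full progesterone response element was in 0.327% of all windows and that of the estrogen response element in 0.0399%. Neither was found in a window of a member, which says only that these letters are not in these windows.

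Values are log2 levels as the authors obtained them with robust multi-array averaging (RMA), so a difference of 1 is a 2-fold change. Groups were compared with limma on all 44 arrays with Benjamini-Hochberg adjustment over 41374 transcript clusters, and a member is said to have risen, fallen or changed at an adjusted p of at most 0.05. Every adjusted p below is from that fit unless another is named. In a culture measured as a whole, fewer cells of a type and less RNA per cell cannot be told apart. Array medians lay between 5.52 and 5.67, and the luminal markers ESR1, GATA3, KRT8, KRT18, KRT19 and EPCAM were above them on all 44 arrays. The fibroblast markers DCN and LUM were under the 30th percentile on all arrays, whereas the endothelial markers PECAM1, VWF and KDR were above it on 43, 44 and 44 arrays and the macrophage marker CD68 on 44. CD68, with a mean of 8.37, was also above the median on all 44 arrays, VWF on 10 and KDR on 2. A level above the 30th percentile or the median therefore does not by itself show a transcript.

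With the 30th percentile of each array (4.47 to 4.60) as background, 57 of the 64 members were above it on all 44 arrays. Above the array median on every array were 42 members, FOXA2, FOXA3, FOXB2, FOXD1, FOXD2, FOXD4, FOXD4L1, FOXD4L6, FOXE3, FOXF1, FOXH1, FOXI1, FOXI2, FOXI3, FOXJ1, FOXJ2, FOXJ3, FOXK1, FOXK2, FOXL2, FOXM1, FOXN2, FOXN4, FOXO1, FOXO3, FOXP1, FOXP2, FOXP3, FOXP4, FOXS1, FOXD2-AS1, an antisense RNA of a gene left out, and SOX4, SOX7, SOX8, SOX9, SOX10, SOX12, SOX13, SOX15, SOX18 and SOX21. A further 15 were above the background everywhere and above the median on some arrays only. These were SOX2, SOX1, SOX3, SOX5, SOX11, SOX17, SOX30, FOXD3, FOXD4L5, FOXE1, FOXF2, FOXL2NB, FOXN1, FOXQ1 and FOXR1.

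The remaining 7 members were never above a median. FOXL1 passed the background on 43 arrays, SOX14 on 40, an antisense RNA of a gene left out on 39, FOXB1 on 2 and SOX2-OT on 1, and FOXR2 and SOX6 on 0. FOXB1, SOX2-OT, FOXR2 and SOX6 were therefore not tested, which left 60 members. SOX6, the partner of SOX5 in cartilage, had a mean of 3.80 and stayed between 3.34 and 4.33. By group, 58 to 60 members were above the background on every array of the group and 60 or 61 on at least 1 array. Near-identical copies (FOXD4, FOXD4L1, FOXD4L5 and FOXD4L6) may share probes, and their levels are uncertain.

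**Figure D1:**
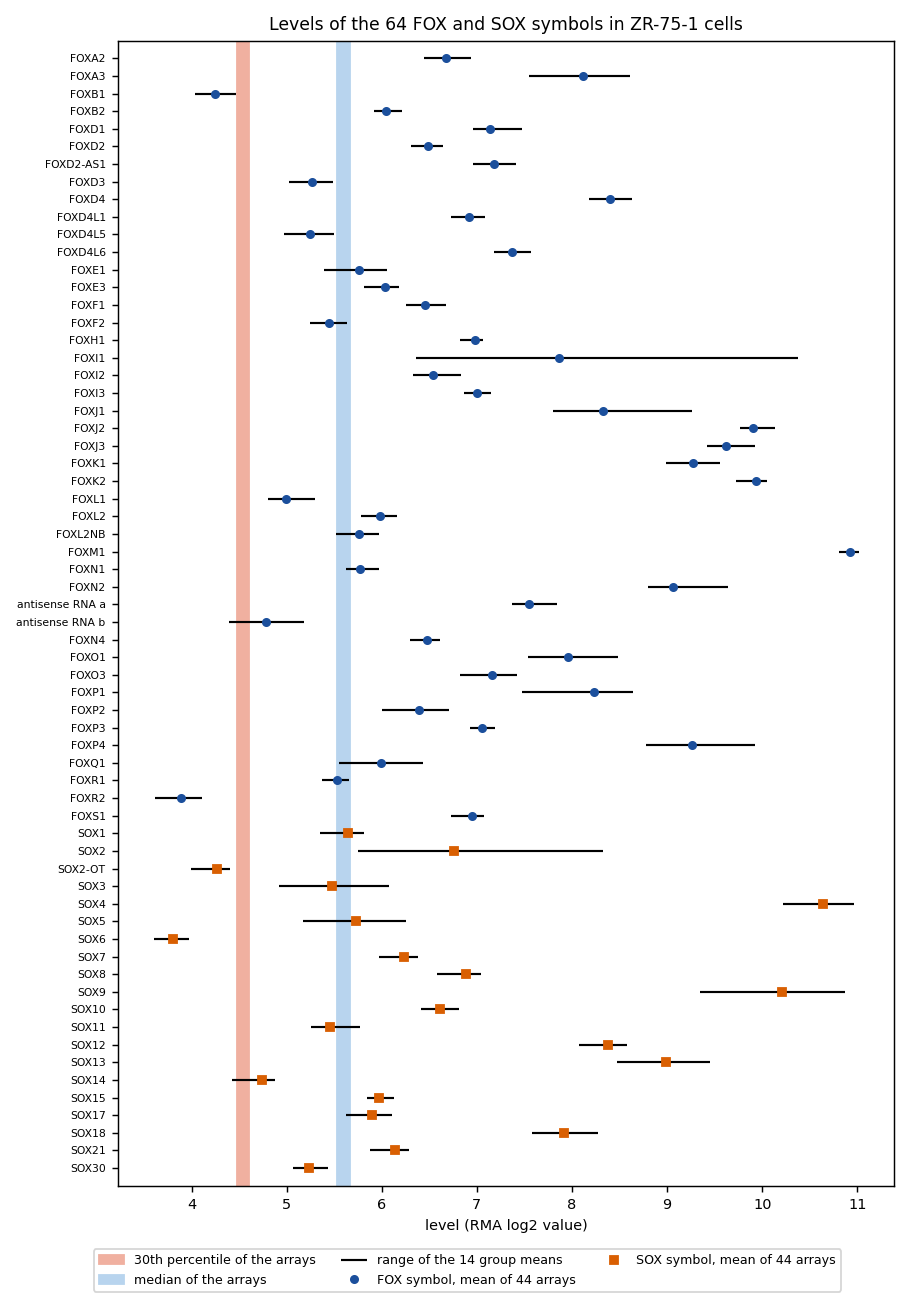
Level of each of the 64 FOX and SOX symbols (log2, x axis), with the mean of 44 arrays as a circle (FOX) or square (SOX) and the range of the 14 group means as a line, above the 30th percentile (red band, 4.47 to 4.60) and the median (blue band, 5.52 to 5.67) of the arrays. Symbols are listed by name, since probes of different clusters are not on a common scale. FOXI1 and SOX2 have the widest ranges of group means, 4.01 and 2.58, against a median range of 0.46 over the members.

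Progestins changed a minority of the family. At 4 h of MPA, 12 of 60 members passed, 6 higher and 6 lower, against 8.28% of all clusters (4.16% higher and 4.12% lower). At 8 h of MPA 11 passed, 5 higher and 6 lower, against 14.3% (6.30% and 7.96%), and at 16 h 12 passed, 4 higher and 8 lower, against 16.0% (6.72% and 9.26%). With P4, 10 passed at 4 h, 6 higher and 4 lower, against 7.90% of all clusters (4.55% and 3.35%), and 10 at 8 h, 6 higher and 4 lower, against 13.3% (6.06% and 7.22%). At 16 h of P4 15 passed, 7 higher and 8 lower, against 15.8% (7.91% and 7.92%).

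Most clusters have no gene name, and named genes pass more often. Among the 13466 named genes tested, 13.3%, 22.6% and 25.5% passed at 4, 8 and 16 h of MPA and 12.3%, 21.3% and 25.4% at 4, 8 and 16 h of P4. Members passed in 16.7% to 25.0% over these comparisons, near the range of named genes, and nothing about the families as a whole is read from it. The median difference over the 60 members lay between -0.10 and 0.07 in these comparisons, and that over all clusters between -0.03 and 0.02. Over the 6 comparisons, which share vehicle arrays within a time, 21 members passed in at least 1, 9 only higher, 11 only lower and FOXA3 in both directions. SOX2 and FOXI1 were lower and SOX9, SOX4 and FOXP4 higher in all 6. The shares of all clusters and named genes that passed in at least 1 or in all 6 are not given here. These counts are therefore not read as a trait of the families.

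SOX2, the stem cell factor, showed the largest fall of the family. At 4 h its level was 5.92, 6.04 and 5.95 with MPA and 6.29, 6.13 and 6.07 with P4, against 7.12, 8.12 and 7.86 with vehicle. At 8 h it was 5.56, 5.94 and 5.83 with MPA and 5.96, 5.77 and 5.53 with P4, against 8.08, 7.91 and 7.89 with vehicle. At 16 h it was 5.64, 6.03 and 6.09 with MPA and 5.88, 5.69 and 6.03 with P4, against 8.67, 7.96 and 7.71 with vehicle. Every progestin array lay below every vehicle array of its time, and vehicle arrays were more scattered at 4 and 16 h (SD 0.52 and 0.50, n = 3) than at 8 h (SD 0.10).

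The log2 difference of SOX2 from vehicle was already -1.73 ± 0.19 (SE) at 4 h of MPA (3.31-fold lower, adjusted p = 2.73e-08) and -1.53 ± 0.19 at 4 h of P4 (2.89-fold lower, adjusted p = 2.85e-07). At 16 h the log2 difference was -2.20 ± 0.19 with MPA (4.58-fold lower) and -2.25 ± 0.19 with P4 (4.75-fold lower, adjusted p = 4.24e-11). E2p E2+MPA cells had SOX2 levels of 5.84, 5.91 and 5.63, and E2p E2+P4 cells 6.31, 6.00, 6.14, 6.22 and 6.17, against 7.65, 7.23 and 7.84 in E2p E2 cells. The differences from E2 were -1.78 ± 0.19 for E2+MPA and -1.40 ± 0.17 for E2+P4, with no overlap. Over the series, SOX2 lay between 5.53 and 6.31 on the 26 arrays with a progestin and between 7.12 and 8.67 on the 18 without.

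Estrogen priming did not move SOX2 beyond its spread. The level was 8.67, 7.96 and 7.71 in E2p V 16 h cells, against 8.29, 8.37 and 8.33 in unprimed cells, a log2 difference of -0.21 with an interval (95%) from -0.60 to 0.18. The unprimed arrays sat inside the range of the primed ones. Ordered by mean, the 6 groups without a progestin all overlapped their neighbours, and a gap of 1.40 separated the lowest of them, E2p E2 16 h, from the highest progestin group, E2p E2+P4 16 h. All 8 calls for SOX2 held whichever compared array was left out.

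SOX9 and SOX4 rose with every progestin treatment. SOX9, which marks luminal progenitors in mouse mammary gland, had levels of 10.57, 10.32 and 10.40 with MPA and 10.40, 10.35 and 10.46 with P4 at 4 h, against 9.79, 9.91 and 9.87 with vehicle. At 8 h SOX9 was at 10.79, 10.66 and 10.63 with MPA and at 10.91, 10.81 and 10.86 with P4, against 9.58, 9.59 and 9.65 with vehicle. At 16 h it was at 10.50, 10.54 and 10.47 with MPA and at 10.67, 10.77 and 10.81 with P4, against 9.58, 9.56 and 9.40 with vehicle. No progestin array overlapped a vehicle array, and over the series the 26 progestin arrays (10.14 to 10.98) stood clear of the 18 others (9.30 to 9.91).

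The log2 difference of SOX9 from vehicle with P4 was 0.55 ± 0.11 at 4 h, 1.25 ± 0.11 at 8 h and 1.23 ± 0.11 at 16 h (2.35-fold, adjusted p = 2.03e-10). The rise was larger at 16 h than at 4 h by 0.69 ± 0.16 (adjusted p = 0.00454, n = 3 per group, limma). With MPA it was 0.57 ± 0.11 at 4 h, 1.09 ± 0.11 at 8 h and 0.99 ± 0.11 at 16 h. The 4 h vehicle had a higher SOX9 level than the other E2p vehicles, and SOX9 was the only member that passed over the 0, 4, 8 and 16 h vehicles (9.45, 9.30 and 9.30 at 0 h, means of 9.35, 9.86, 9.61 and 9.51, adjusted p = 0.047), where 1.94% of all clusters passed. That call was lost in 11 of the 12 fits that left out 1 array, with an adjusted p of up to 0.160. At an unadjusted p under 0.05, 8 members differed over these vehicles. The share of all clusters at that threshold is not given here, so this count is not read further.

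SOX4, a factor of the SOXC group known in progenitor cells and epithelial to mesenchymal change, had levels of 10.80, 10.72 and 10.86 with MPA and 10.80, 10.99 and 11.09 with P4 at 4 h, against 10.27, 10.24 and 10.15 with vehicle. At 8 h its levels were 10.86, 10.82 and 10.87 with MPA and 10.93, 11.04 and 10.92 with P4, against 10.42, 10.34 and 10.09 with vehicle. At 16 h they were 10.77, 10.79 and 10.73 with MPA and 10.999, 10.88 and 10.998 with P4, against 10.40, 10.39 and 10.17 with vehicle. The progestin arrays were above the vehicle arrays at each time. The difference with P4 was 0.74 ± 0.09 at 4 h (adjusted p = 5.72e-08), 0.68 ± 0.09 at 8 h and 0.64 ± 0.09 at 16 h. With MPA it was 0.58 ± 0.09, 0.57 ± 0.09 and 0.44 ± 0.09 at 4, 8 and 16 h.

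SOX5 and SOX3 rose with estrogen priming and fell with progestins. SOX5, a chromatin organiser of cartilage and neural crest, was at 6.47, 6.04 and 6.24 in E2p V 16 h cells, against 5.29, 5.74 and 5.18 in unprimed cells, a difference of 0.85 ± 0.15 (1.80-fold, adjusted p = 0.000107). SOX3, the X-linked relative of SOX2, was at 6.17, 5.81 and 5.75 in E2p V 16 h cells, against 4.94, 4.82 and 5.00 in unprimed cells, a difference of 0.99 ± 0.17 (1.98-fold, adjusted p = 0.000108). For both genes all primed arrays lay above all unprimed arrays. Both lay near the array medians, with SOX5 above them on 25 of 44 arrays and SOX3 on 20.

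SOX5 did not differ from vehicle at 4 h beyond its spread, with 6.00, 6.28 and 6.05 under MPA and 5.92, 6.20 and 6.11 under P4, against 5.93, 6.36 and 6.16 under vehicle. At 8 h it was 5.38, 5.36 and 5.32 under MPA and 5.46, 5.68 and 5.30 under P4, against 6.09, 6.12 and 6.33. At 16 h it was 5.04, 5.22 and 5.24 under MPA and 5.36, 5.66 and 5.28 under P4, against 6.47, 6.04 and 6.24. From 8 h on, no progestin array overlapped a vehicle array. The 16 h difference was -1.08 ± 0.15 under MPA (2.12-fold lower, adjusted p = 8.37e-07) and -0.82 ± 0.15 under P4 (adjusted p = 8.14e-05). The change between 4 and 16 h was itself past the threshold, at -1.04 ± 0.21 for MPA (adjusted p = 0.00137) and -0.74 ± 0.21 for P4 (adjusted p = 0.0236), and the second was lost without any 1 of 5 of the 12 arrays (adjusted p up to 0.0883).

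SOX3 fell at 16 h only. Its levels were 5.16, 4.81 and 4.93 with MPA and 5.24, 5.23 and 4.74 with P4, against 6.17, 5.81 and 5.75 with vehicle. The differences were -0.94 ± 0.17 (adjusted p = 9.53e-05) and -0.84 ± 0.17 (adjusted p = 0.000436), and the groups did not overlap. At 4 h they were -0.40 ± 0.17 and -0.51 ± 0.17 and did not pass, with 4 h vehicle arrays at 5.65, 6.18 and 6.41. Whether the differences at 4 and 16 h differ was tested and did not pass for SOX3 with either progestin.

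**Figure D2:**
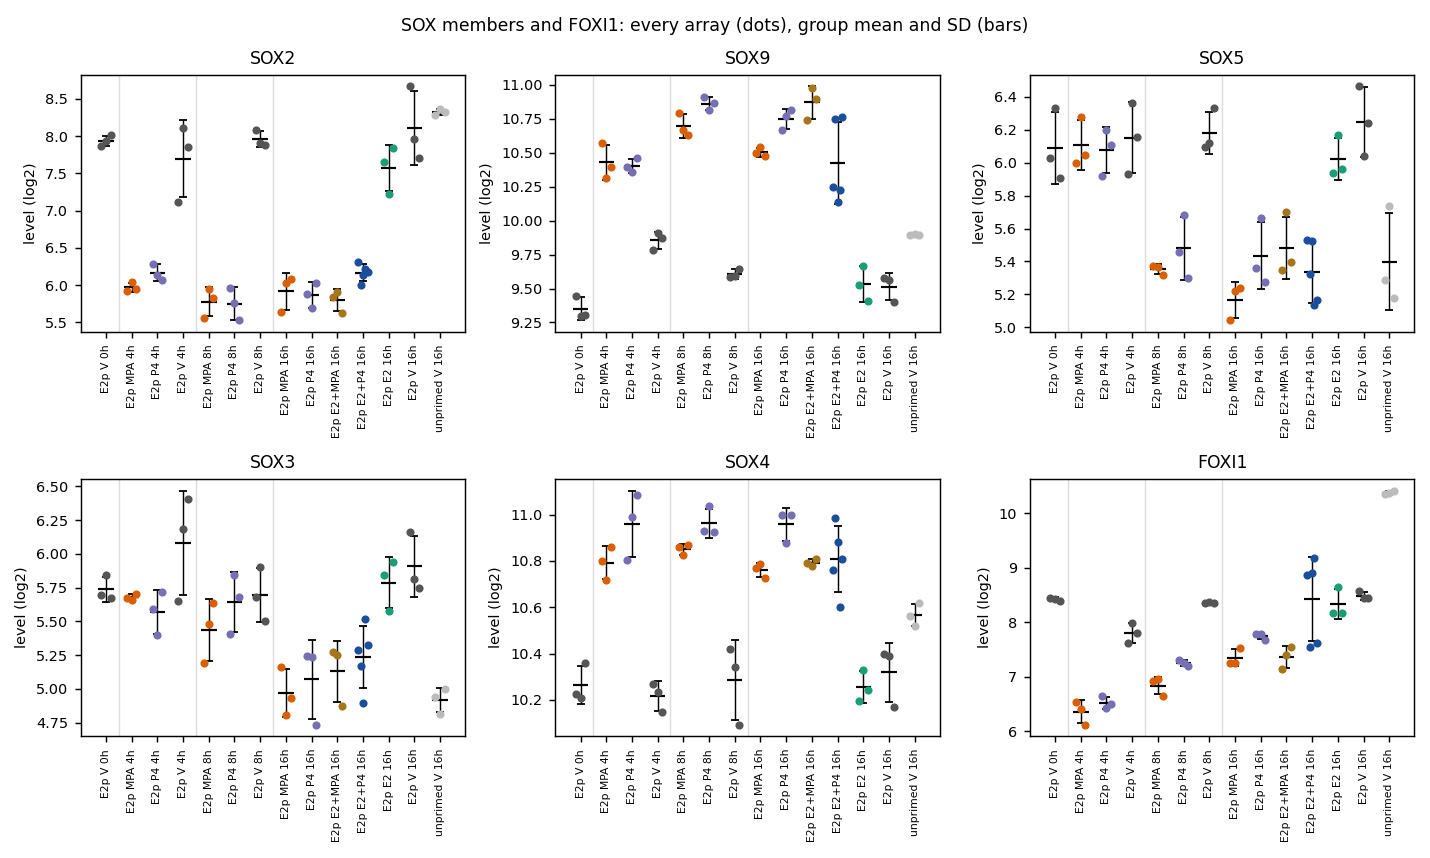
Level on every array (log2, y axis, a dot per array) in the 14 groups (x axis, grouped by overlay time from 0 to 16 h with unprimed cells last) for 5 SOX members and FOXI1, with the group mean as a short line and the SD as a bar. SOX2 lies at 6.31 or less on all progestin arrays and at 7.12 or more on all others, and the 5 E2p E2+P4 16 h arrays of FOXI1 spread from 7.56 to 9.17.

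FOXI1, a factor of acid-secreting cells in kidney and inner ear, had the widest range of group means. Its level was 8.57, 8.45 and 8.44 in E2p V 16 h cells, against 10.34, 10.36 and 10.41 in unprimed cells. Priming lowered it by 1.89 ± 0.25 on the log2 scale, a 3.70-fold lower level (adjusted p = 8.50e-07), with no overlap. Progestins lowered it further. At 4 h it was 6.54, 6.42 and 6.13 with MPA and 6.64, 6.42 and 6.50 with P4, against 7.61, 7.99 and 7.81 with vehicle, and at 8 h 6.92, 6.96 and 6.65 with MPA and 7.30, 7.26 and 7.19 with P4, against 8.36, 8.36 and 8.35. At 16 h it was 7.26, 7.25 and 7.53 with MPA and 7.78, 7.79 and 7.68 with P4, against 8.57, 8.45 and 8.44.

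All progestin arrays of FOXI1 lay below the vehicle arrays of their time. The difference was -1.44 ± 0.25, -1.52 ± 0.25 and -1.14 ± 0.25 at 4, 8 and 16 h of MPA and -1.28 ± 0.25, -1.10 ± 0.25 and -0.74 ± 0.25 at 4, 8 and 16 h of P4. The call at 16 h of P4 (adjusted p = 0.036) was lost when any 1 of the 6 compared arrays was left out of the fit on 44 arrays (adjusted p up to 0.107) and held on the compared arrays alone (adjusted p = 0.00495). FOXI1 had an SD of 0.77 in the 5 E2p E2+P4 16 h arrays, against 0.01 to 0.27 in the other groups, and the shared fit carries that spread into each comparison. The E2p vehicle means of FOXI1 were 7.80 at 4 h and 8.36 to 8.49 at 0, 8 and 16 h, and did not differ past the threshold (adjusted p = 0.374).

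FOXJ1, the factor that switches on genes of motile cilia, fell with both progestins at 16 h. There its level was 7.74, 8.04 and 7.60 with MPA and 7.90, 7.69 and 7.85 with P4, against 8.97, 8.64 and 8.72 with vehicle, differences of -0.98 ± 0.19 (1.97-fold lower, adjusted p = 0.000248) and -0.96 ± 0.19 (adjusted p = 0.000305) without overlap. At 8 h it was 7.88, 8.09 and 8.03 with MPA and 8.22, 8.20 and 8.05 with P4, against 8.60, 8.60 and 8.74. The 8 h difference of -0.65 ± 0.19 with MPA passed (adjusted p = 0.0181, and 0.081 at most when an array was left out, with the call lost without MPA replicate 1 or vehicle replicate 3), whereas that of -0.49 ± 0.19 with P4 did not. At 4 h the vehicle arrays of FOXJ1 were scattered (8.06, 8.64 and 8.34) and neither progestin passed. The change between the 4 and 16 h differences did not pass either (-0.74 with MPA, adjusted p = 0.141, and -0.83 with P4, adjusted p = 0.0599).

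The FOXP subfamily, whose members repress transcription and can pair with each other, moved in both directions. FOXP4 rose at every time. At 4 h it was 9.42, 9.35 and 9.43 with MPA and 9.13, 9.04 and 9.12 with P4, against 8.82, 8.81 and 8.79 with vehicle, and at 8 h 9.92, 9.91 and 9.93 with MPA and 9.72, 9.75 and 9.72 with P4, against 8.79, 8.76 and 8.79. At 16 h it was 9.75, 9.74 and 9.77 with MPA and 9.41, 9.53 and 9.50 with P4, against 8.91, 8.80 and 8.88.

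Replicates of FOXP4 were tight, and the 3 treatments did not overlap at any time. The difference from vehicle had its highest estimate at 8 h, at 1.14 ± 0.08 with MPA (2.21-fold, adjusted p = 1.03e-13) and 0.95 ± 0.08 with P4 (1.93-fold, adjusted p = 9.20e-12). At 4 h it was 0.60 ± 0.08 and 0.29 ± 0.08, and at 16 h 0.89 ± 0.08 and 0.62 ± 0.08. All 9 calls for FOXP4 held whichever compared array was left out. Over the series, 26 progestin arrays lay between 9.04 and 9.93 and the 18 others between 8.73 and 9.04, with no overlap.

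FOXP1 fell late. At 4 h its level was 8.64, 8.61 and 8.61 with MPA and 8.58, 8.70 and 8.65 with P4, against 8.55, 8.56 and 8.55 with vehicle, and neither passed. At 8 h it was 7.86, 8.02 and 7.89 with MPA and 8.18, 8.16 and 8.24 with P4, against 8.48, 8.36 and 8.33, and at 16 h 7.91, 7.89 and 7.83 with MPA and 8.06, 7.95 and 7.77 with P4, against 8.44, 8.42 and 8.32. At 8 and 16 h both progestins lay below vehicle without overlap, while MPA and P4 overlapped each other at 16 h. MPA lowered FOXP1 by 0.46 ± 0.08 at 8 h (adjusted p = 8.45e-05) and by 0.52 ± 0.08 at 16 h (adjusted p = 1.31e-05), and P4 lowered it by 0.46 ± 0.08 at 16 h (adjusted p = 6.87e-05), while the difference of -0.20 ± 0.08 at 8 h of P4 did not pass. The 16 h difference was below the 4 h difference by 0.59 ± 0.12 for MPA (adjusted p = 0.00132) and by 0.56 ± 0.12 for P4 (adjusted p = 0.00172).

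FOXP2, known for its part in speech and neural circuits, differed by -0.43 ± 0.12 at 8 h of MPA (adjusted p = 0.013) and by -0.39 ± 0.12 at 16 h of P4 (adjusted p = 0.0227). Each call was lost without either of 2 arrays (MPA replicate 1 or vehicle replicate 2, adjusted p up to 0.0939, and P4 replicate 3 or vehicle replicate 1, adjusted p up to 0.185). FOXP3, the regulatory T cell factor, passed in no comparison.

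FOXA3, a pioneer factor first described in liver, was the only member with calls in both directions among the 6 comparisons of a progestin with vehicle. At 4 h it was lower, with 7.90, 7.60 and 7.74 under MPA and 7.56, 7.59 and 7.51 under P4, against 8.32, 8.14 and 8.11 under vehicle. At 8 h it was 7.99, 8.02 and 8.28 under MPA and 8.32, 8.61 and 8.51 under P4, against 8.22, 8.02 and 8.16, and at 16 h 8.16, 7.98 and 8.11 under MPA and 8.36, 8.44 and 8.19 under P4, against 8.05, 8.20 and 8.03. At 4 h both progestins were clear of vehicle, and later only P4 at 8 h was.

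The 4 h difference of FOXA3 was -0.45 ± 0.11 with MPA (adjusted p = 0.00538, and 0.0528 without MPA replicate 2) and -0.64 ± 0.11 with P4 (adjusted p = 6.20e-05). At 8 h of P4 it was 0.35 ± 0.11 (adjusted p = 0.0255), a call lost without any 1 of 4 arrays (adjusted p up to 0.153). The P4 difference at 16 h exceeded that at 4 h by 0.88 ± 0.15 (adjusted p = 0.000167). Priming lowered FOXA3, with 8.05, 8.20 and 8.03 in E2p V 16 h cells, against 8.56, 8.49 and 8.78 in unprimed cells, a difference of -0.52 ± 0.11 (adjusted p = 0.0013) without overlap.

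FOXO1, the FOXO factor that works with the progesterone receptor in uterine stroma, rose at 4 h. There it was 8.32, 8.38 and 8.23 with MPA and 8.41, 8.62 and 8.40 with P4, against 7.54, 7.61 and 7.81 with vehicle, differences of 0.66 ± 0.13 (1.58-fold, adjusted p = 0.000438) and 0.83 ± 0.13 (1.78-fold, adjusted p = 1.62e-05). At 8 h it was 8.13, 8.23 and 8.07 with MPA and 8.09, 8.13 and 8.04 with P4, against 7.86, 7.79 and 7.61, and at 16 h 7.79, 8.09 and 8.17 with MPA and 8.29, 8.01 and 8.13 with P4, against 7.74, 7.66 and 7.59. All progestin arrays stayed above the vehicle arrays of their time.

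The differences of FOXO1 were 0.39 ± 0.13 at 8 h of MPA (adjusted p = 0.0364, lost without any 1 of 5 arrays, adjusted p up to 0.175) and 0.48 ± 0.13 at 16 h of P4 (adjusted p = 0.00673, and 0.0551 without P4 replicate 1). At 8 h of P4 and 16 h of MPA they were 0.33 ± 0.13 and 0.36 ± 0.13 and did not pass. The 16 h difference was not distinguishable from the 4 h difference with either progestin (-0.31 with MPA, adjusted p = 0.504, and -0.34 with P4, adjusted p = 0.361). FOXO3, a close relative, differed by 0.47 ± 0.10 at 16 h of MPA (adjusted p = 0.000356) and by 0.37 ± 0.10 at 16 h of P4 (adjusted p = 0.00506, and 0.0819 without P4 replicate 2). It has 2 clusters, and with their mean in place of the brighter cluster neither call held (adjusted p up to 0.150 for MPA and 0.513 for P4).

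FOXN2, a forkhead factor of less known function, passed at 8 h with both progestins and at 16 h with P4. Its levels were 8.96, 9.32 and 9.31 with MPA and 9.04, 9.31 and 9.28 with P4 at 8 h, against 8.83, 8.87 and 8.83 with vehicle, and 8.995, 9.22 and 9.17 with MPA and 9.33, 9.29 and 9.31 with P4 at 16 h, against 9.03, 8.88 and 8.65. Only MPA at 16 h overlapped its vehicle. The difference was 0.36 ± 0.11 at 8 h of MPA, 0.37 ± 0.11 at 8 h of P4 and 0.46 ± 0.11 at 16 h of P4 (adjusted p = 0.00376). Each 8 h call was lost without any 1 of 5 arrays (adjusted p up to 0.153 and 0.130). At 4 h the levels were 9.11, 8.93 and 8.70 with MPA and 8.91, 8.99 and 8.77 with P4, against 8.97, 8.93 and 9.20, and the P4 difference at 16 h exceeded that at 4 h by 0.60 ± 0.16 (adjusted p = 0.0165, and up to 0.0679 without vehicle 16 h replicate 3, P4 4 h replicate 3 or vehicle 4 h replicate 3).

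**Figure D3:**
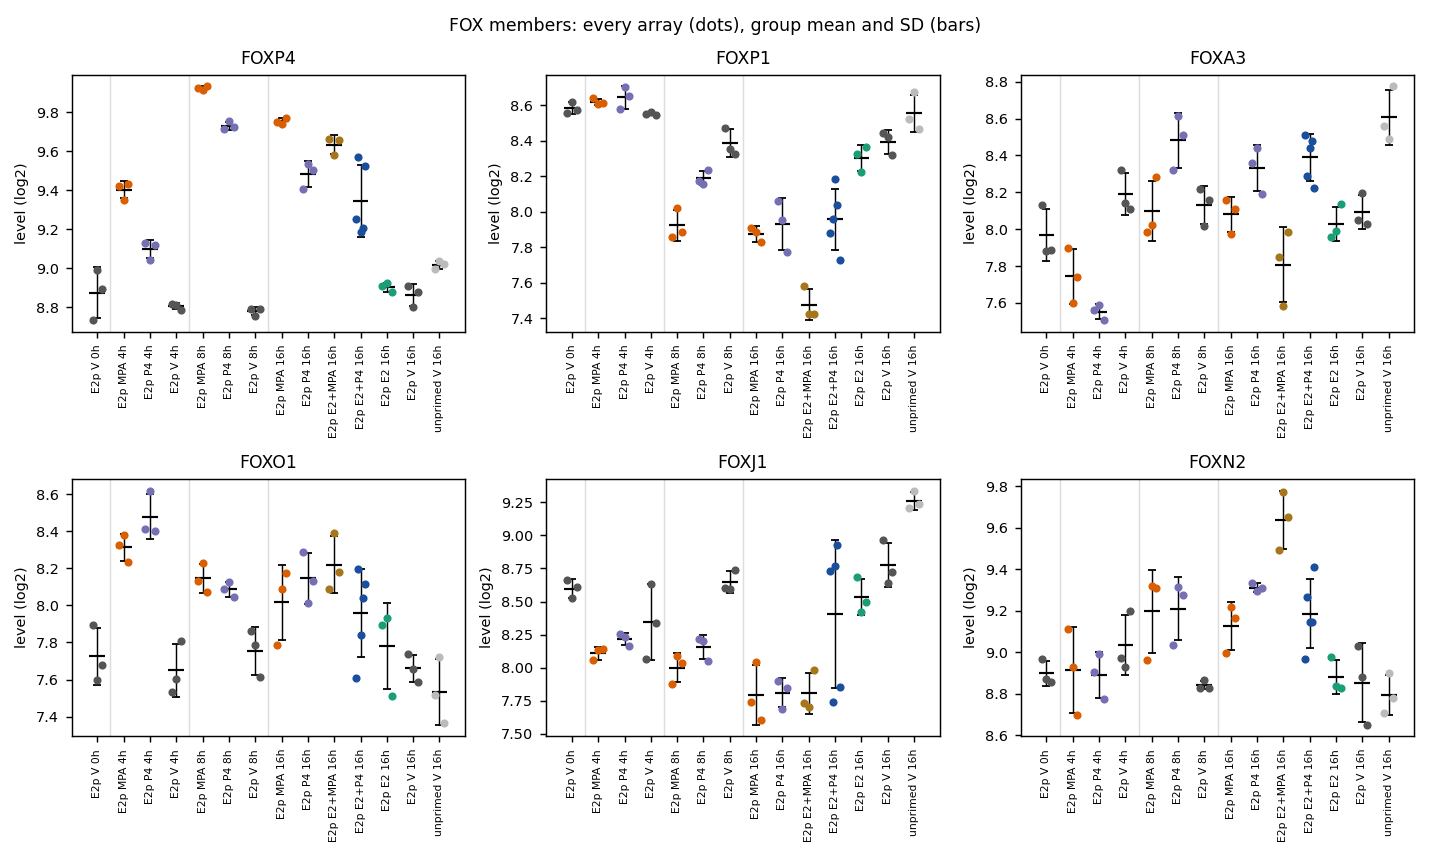
Level on every array (log2, y axis, a dot per array) in the 14 groups (x axis, as for the SOX members) for 6 FOX members, with group means and SD. FOXP4 is at or above 9.04 on all progestin arrays, FOXP1 is below its vehicle from 8 h, and FOXA3 is below its vehicle at 4 h.

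Among the other members that passed with progestins, FOXK1, a repressor that competes with FOXO factors in mouse muscle, was lower by 0.24 ± 0.07 at 4 h of MPA (adjusted p = 0.0208, lost without any 1 of 3 arrays, up to 0.131). With P4 it was lower by 0.28 ± 0.07, 0.22 ± 0.07 and 0.30 ± 0.07 at 4, 8 and 16 h (adjusted p = 0.00581, 0.0224 and 0.00159). It was also lower by 0.49 with E2+MPA than with E2, and 4 of its 7 calls held whichever compared array was left out. SOX18, an endothelial and lymphatic factor, was higher by 0.37 ± 0.09 at 8 h and 0.38 ± 0.09 at 16 h of P4 (the second with an adjusted p of 0.0539 without vehicle 16 h replicate 3), and its P4 difference at 16 h exceeded that at 4 h by 0.57 ± 0.13 (adjusted p = 0.00391). SOX13 was lower by 0.44 ± 0.13 at 4 h and 0.37 ± 0.13 at 16 h of MPA (adjusted p = 0.027 and 0.0493), and each call was lost without any 1 of at least 4 arrays (adjusted p up to 0.151 and 0.211). In the other direction, SOX13 passed as higher with E2+P4 than with E2, and it did not pass with E2+MPA against E2. FOXJ3 was lower at 16 h of MPA by 0.28 ± 0.07 and FOXJ2 at 4 h of MPA by 0.25 ± 0.08 (adjusted p = 0.0475, up to 0.334 when an array was left out). FOXD2-AS1 was higher by 0.38 ± 0.12 and 0.44 ± 0.12 at 4 h of MPA and P4, and both calls were lost without vehicle 4 h replicate 1. An antisense RNA of a gene left out that lay near background was higher by 0.58 ± 0.14 with MPA and 0.47 ± 0.14 with P4 at 4 h, and both calls were lost without vehicle 4 h replicate 2 or 3.

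**Figure D4:**
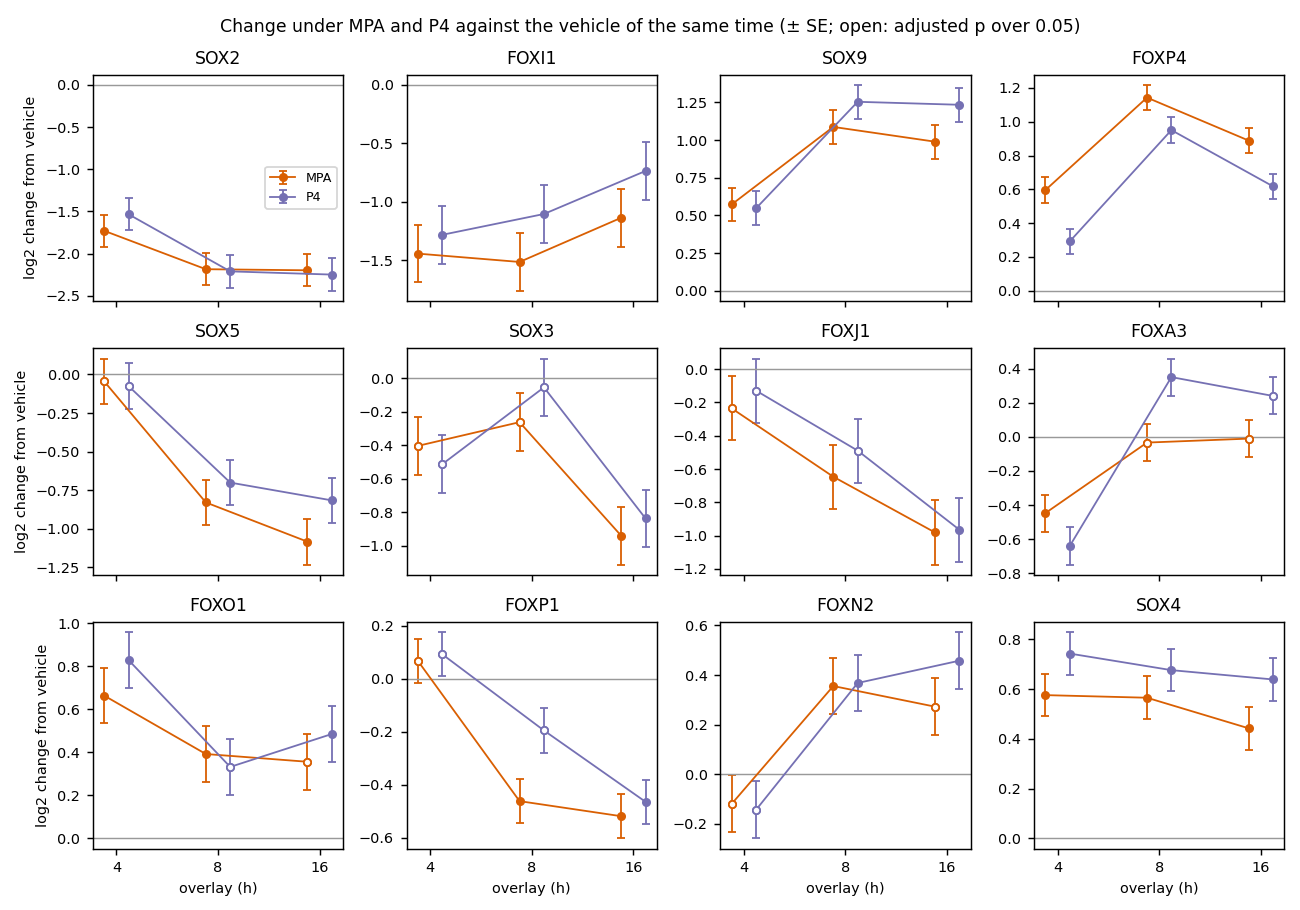
Log2 difference from the vehicle of the same time (y axis, ± SE) at 4, 8 and 16 h of overlay (x axis) for MPA (orange) and P4 (purple), for the 12 members with the largest called changes, with open circles where the adjusted p was over 0.05. SOX4 and FOXO1 are highest at 4 h, FOXP4 at 8 h, and SOX5, SOX3, FOXJ1 and FOXP1 pass only from 8 or 16 h.

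Priming itself changed 8 of 60 members, 4 higher and 4 lower, against 7.50% of all clusters (2.55% higher and 4.95% lower) and 12.1% of named genes. FOXI1, SOX3, SOX5 and FOXA3 are given above. SOX9 was at 9.58, 9.56 and 9.40 in E2p V 16 h cells, against 9.90 on all 3 unprimed arrays, a difference of -0.38 ± 0.11 (adjusted p = 0.029, up to 0.176 when an array was left out). FOXK1 and FOXK2, close relatives, were higher by 0.23 ± 0.07 each and FOXJ3 was lower by 0.23 ± 0.07. The calls for SOX9, FOXK1, FOXK2 and FOXJ3 were each lost without any 1 of at least 4 of the 6 arrays, and adjusted p reached 0.0929 for FOXK1, 0.145 for FOXK2 and 0.175 for FOXJ3. The count of members that passed was 4 without unprimed replicate 1 or 2.

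A second addition of E2 to primed cells changed 0 of 60 members, against 0.00483% of all clusters. At an unadjusted p under 0.05 there were 4, and the share of all clusters at that threshold is not given here. With array weights limma called 3 members and 656 of all clusters. Differences ran from -0.62 to 0.37. The lowest was that of SOX13 (interval -0.89 to -0.36, adjusted p = 0.168), whose groups did not overlap. SOX2, at 7.65, 7.23 and 7.84 in E2p E2 cells, against 8.67, 7.96 and 7.71 in E2p V 16 h cells, differed by -0.54 with an interval from -0.93 to -0.15 and an adjusted p of 0.964. The groups overlapped.

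Progestins added together with E2 were compared with E2 alone. With E2+MPA 16 members passed, 7 higher and 9 lower, against 19.8% of all clusters (8.04% and 11.8%) and 30.7% of named genes. With E2+P4 13 passed, 7 higher and 6 lower, against 13.9% (5.95% and 7.92%) and 21.7% of named genes. The comparisons share the E2 arrays. SOX9 was at 10.74, 10.98 and 10.89 with E2+MPA and at 10.24, 10.75, 10.14, 10.23 and 10.76 with E2+P4, against 9.52, 9.67 and 9.41 with E2, which gave differences of 1.34 ± 0.11 (2.53-fold, adjusted p = 2.64e-11) and 0.89 ± 0.10 (adjusted p = 2.57e-08) without overlap.

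FOXP1 was at 7.58, 7.43 and 7.43 with E2+MPA and at 7.88, 7.96, 8.19, 8.04 and 7.73 with E2+P4, against 8.33, 8.22 and 8.37 with E2. The E2+MPA arrays were lowest and no groups overlapped. FOXP1 differed from E2 by -0.83 ± 0.08 (1.77-fold lower, adjusted p = 1.50e-09) with E2+MPA and by -0.35 ± 0.07 with E2+P4 (adjusted p = 0.000883), and FOXP4 by 0.73 ± 0.08 and 0.44 ± 0.07. FOXN2 was at 9.49, 9.77 and 9.65 with E2+MPA, against 8.98, 8.84 and 8.83 with E2, a difference of 0.76 ± 0.11 (adjusted p = 3.65e-06). It also passed as higher with E2+P4 than with E2, by less than with E2+MPA.

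Further members passed in these mixtures. SOX4 was higher by 0.54 ± 0.09 with E2+MPA and 0.55 ± 0.08 with E2+P4, and SOX5 was lower by 0.54 ± 0.15 with E2+MPA and 0.69 ± 0.13 with E2+P4. FOXO1 was higher by 0.44 ± 0.13 with E2+MPA, a call lost without E2+MPA replicate 2 or E2 replicate 3 (adjusted p up to 0.144). FOXA3 was higher by 0.36 ± 0.10 with E2+P4 (adjusted p = 0.00849, and 0.0587 without E2 replicate 1). SOX3 was lower by 0.66 ± 0.17 and 0.55 ± 0.15, and its call was lost without E2+MPA replicate 3 in the first case and without E2 replicate 1 or 3 in the second (adjusted p up to 0.0952). With E2+MPA alone, FOXQ1, a forkhead factor known in gut epithelium and epithelial to mesenchymal change, was higher by 0.70 ± 0.17 (adjusted p = 0.00266), and SOX11 by 0.52 ± 0.14 (adjusted p = 0.00696, up to 0.0543 without E2 replicate 1 or 2). FOXP2 was lower by 0.57 ± 0.12 there, and FOXI1 and FOXJ1 by 0.97 ± 0.25 and 0.73 ± 0.19.

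The 5 E2p E2+P4 arrays did not form a tight group for several members. FOXI1 was at 8.87, 7.56, 8.90, 9.17 and 7.62 and FOXJ1 at 8.73, 7.74, 8.77, 8.93 and 7.86 on replicates 1 to 5, so that replicates 2 and 5 were low for both. SOX9 was high on the same 2 arrays, at 10.75 and 10.76, and at 10.24, 10.14 and 10.23 on the others, and FOXP4 was at 9.57 and 9.52 on them and at 9.25, 9.19 and 9.21 on the others. SOX2 did not follow this division (6.00 and 6.17, against 6.31, 6.14 and 6.22). The SD over the group was 0.77 for FOXI1 and 0.56 for FOXJ1, and neither gene passed with E2+P4. The labels give nothing that sets replicates 2 and 5 apart, and the reason was not tested.

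MPA and P4 were compared directly at matched dose and time in 4 pairs. Over all clusters of a single comparison, 0 of 60 members passed at 4, 8 or 16 h, against 0.0145%, 0.00242% and 0.0121% of all clusters, and 5, 4 and 8 members had an unadjusted p under 0.05. The share of all clusters under that unadjusted threshold is not given here, so the last 3 counts are not read further. None of the alternative limma settings called a member in these 3 pairs. With E2 present, 9 members passed between E2+MPA and E2+P4, 3 higher and 6 lower with MPA, against 6.08% of all clusters (2.66% and 3.42%) and 10.6% of named genes.

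With p-values adjusted over the 4 pairs together, 1 of 60 members passed at 4 h and 0 at 8 and 16 h, against 0.203%, 0.0701% and 0.196% of all clusters under the same adjustment. FOXP4 differed at 4 h, at 9.42, 9.35 and 9.43 with MPA, against 9.13, 9.04 and 9.12 with P4. It was higher with MPA by 0.30 (interval 0.15 to 0.46, adjusted p = 0.035). Adjusted over the 4 h comparison alone, FOXP4 did not pass. The joint adjustment also takes in the pair with E2, where 1586 of all clusters passed, against 84 at 4 h. The differences of 0.19 (0.04 to 0.35) at 8 h and 0.27 (0.12 to 0.42) at 16 h did not pass (adjusted p = 0.347 and 0.0773), although no MPA array overlapped a P4 array. For SOX2 the differences between MPA and P4 were -0.20 (-0.59 to 0.19), 0.03 (-0.36 to 0.42) and 0.05 (-0.34 to 0.44) at 4, 8 and 16 h, so these arrays allow a lower level with MPA of up to 0.59 at 4 h. The differences of FOXI1 between MPA and P4 were -0.16, -0.41 and -0.40 at 4, 8 and 16 h, with intervals that include 0.

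In the presence of E2, 7 of 60 members passed over the 4 pairs, against 3.83% of all clusters. FOXI1 was lower with E2+MPA (7.14, 7.40 and 7.54) than with E2+P4 (7.56 to 9.17) by 1.06 (interval -1.51 to -0.61, adjusted p = 0.0067). FOXP1 and FOXA3 were lower by 0.48 and 0.58 (adjusted p = 0.000198 and 0.000531) and SOX13 by 0.55, while FOXN2, SOX9 and FOXP4 were higher by 0.45, 0.45 and 0.29. For FOXA3 the arrays were at 7.85, 7.58 and 7.98 with E2+MPA, against 8.51, 8.29, 8.44, 8.48 and 8.22 with E2+P4, and did not overlap, whereas those of SOX9 did. For FOXI1, SOX9, FOXP4 and FOXA3, E2+P4 replicates 2 and 5, described above, lay nearer to the E2+MPA mean than the other E2+P4 arrays did. No fit left out these 2 arrays together, so how far the differences rest on the other E2+P4 arrays was not tested. Fitted on the 8 compared arrays alone, none of the members passed, with 18 of all clusters called. Without E2+MPA replicate 2, 5 of the 9 members of the single comparison kept their call, and SOX9 and FOXN2 did not (adjusted p = 0.0607 and 0.0706).

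**Figure D5:**
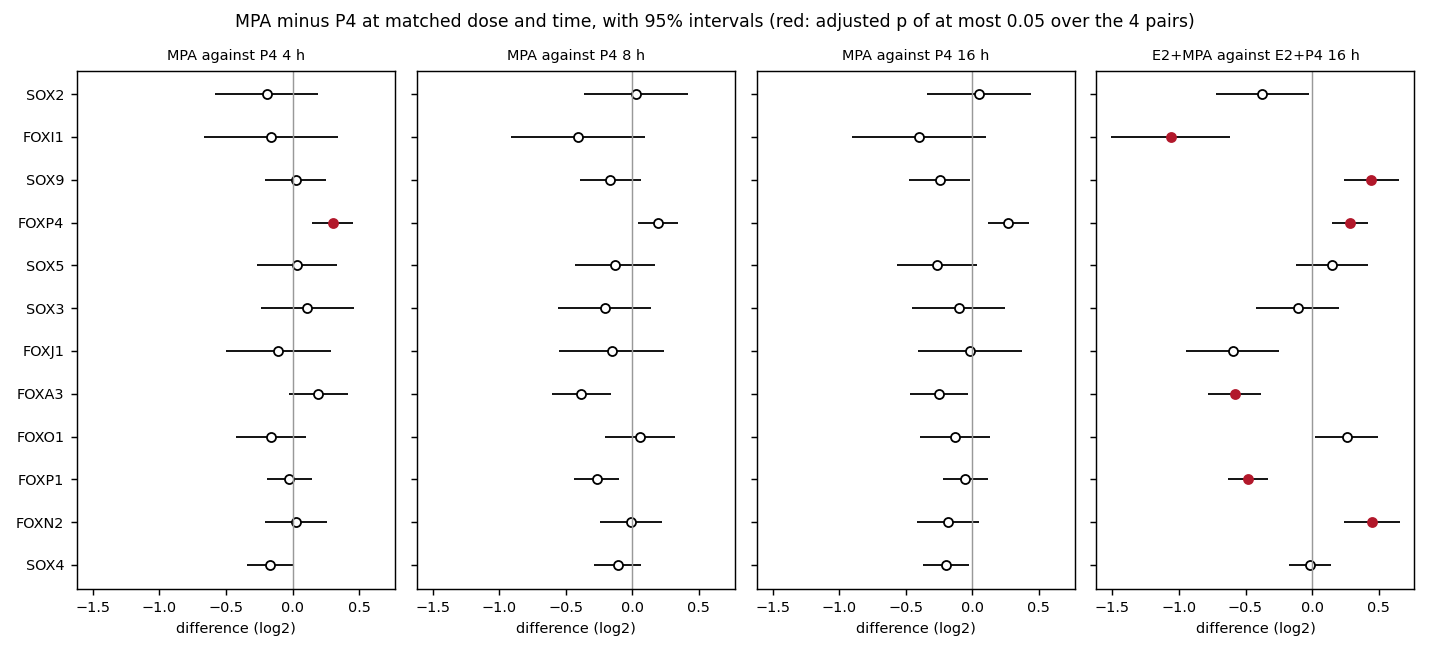
Difference of MPA minus P4 (log2, x axis, with 95% intervals) at 4, 8 and 16 h and with E2 present at 16 h, for the 12 members with the largest called changes (y axis). Filled red circles have an adjusted p of at most 0.05 over the 4 pairs, which holds for FOXP4 at 4 h (0.30) and for 6 of the 12 with E2 present.

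The change of the progestin difference between 4 and 16 h was tested as an interaction. With P4, 6 of 60 members passed, 4 higher and 2 lower at 16 h, against 6.71% of all clusters (3.43% and 3.28%), and with MPA 3 passed, 1 higher and 2 lower, against 4.38% (2.05% and 2.33%). SOX5 and FOXP1 passed with both progestins, which share vehicle arrays. FOXA3, SOX9, FOXN2 and SOX18 passed with P4 and FOXO3 with MPA.

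In all 17 comparisons, 36 tested members passed nowhere. The share of all clusters that passed in none of the 17 is not given here, so this count is not read as a trait of the families. Group means of the 36 spanned between 0.21 and 0.67 over the 14 groups. FOXM1, which stayed between 10.75 and 11.03 on the 44 arrays, had the smallest range of group means among them, and its differences at 16 h were 0.06 with MPA and 0.11 with P4. SOX12, FOXD4, FOXP3, FOXF1, FOXA2, SOX8, SOX10, SOX21, FOXE1 and FOXD1 were also among them.

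Genes of the pathways around these factors were read from the same fit. Of 16 genes that regulate FOXO factors 10 were tested, and at 16 h 3 were higher and 1 lower with MPA and 4 higher and 1 lower with P4 (list median 0.13 and 0.14, against 0.02 and -0.01 over all clusters). In the same comparisons 16.0% and 15.8% of all clusters and 25.5% and 25.4% of named genes passed. SGK1, a kinase that phosphorylates FOXO3, rose by 1.28 with MPA and 1.61 with P4, and USP7, a deubiquitinase of FOXO factors, by 0.58 and 0.63. IRS1, the insulin receptor substrate, fell, with differences of -1.31 and -1.41. PDPK1, the kinase upstream of AKT and SGK1, rose by 0.49 with MPA, and IRS2 by 0.70 with P4.

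Of 19 known FOXO targets 13 were tested, of which IRS2 and INSR also stand in the list of regulators. At 4 h 4 were higher and 5 lower with MPA and 4 higher and 2 lower with P4 (median -0.18 and -0.03), where 8.28% and 7.90% of all clusters and 13.3% and 12.3% of named genes passed. BCL2L11, a cell death gene, rose by 1.88 with MPA and 2.08 with P4 at 4 h, KLF9 by 1.07 and 1.18 and BCL6 by 0.87 and 1.02. At 16 h 3 were higher and 7 lower with MPA and 4 higher and 6 lower with P4 (median -0.28 and -0.30), against the 16 h shares of all clusters and named genes given for the regulators. FBXO32, a ubiquitin ligase of muscle atrophy, fell (-1.46 and -1.60), as did TXNIP (-1.12 and -1.33) and CCNG2 (-0.83 and -0.88), while KLF9 rose by 1.10 and 1.36. The targets moved in both directions.

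Of 13 FOXM1 targets 11 were tested, and at 16 h only KIF20A passed with either progestin, lower by 0.48 with MPA and 0.33 with P4 (list median 0.01 and 0.09). Of 14 SOX2 partners and stem cell genes 10 were tested. KLF4 rose by 0.85 with MPA and 0.80 with P4 at 16 h and NANOG, which has near-identical pseudogenes and is uncertain, by 1.49 and 1.11, while POU5F1 did not pass. PROM1 fell by 0.36 with MPA at 16 h. Of 12 other luminal factors 9 were tested, and at 16 h 1 was higher and 6 lower with MPA and 2 higher and 6 lower with P4 (median -0.45 and -0.34), against 16.0% and 15.8% of all clusters and 25.5% and 25.4% of named genes. The progesterone receptor gene PGR fell (-3.40 with MPA and -3.05 with P4), as did the estrogen receptor gene ESR1 (-2.07 and -2.10), MYB (-1.78 and -1.69) and GATA3 (-0.79 and -0.80).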

How the data were processed

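RNA of 44 ZR-75-1 samples had been hybridised to Affymetrix Gene ST arrays, 1 array a sample. The deposited values are log2 levels that the authors made with RMA, which corrects background, quantile normalizes and summarises probes. The submitters' notes name RMA and limma, with versions not given in the sources used here. Labels name the Gene 1.0 ST design and the platform annotation the Gene 2.0 ST design. Names came from that annotation, updated through gene IDs to RefSeq (GRCh38.p14). Of 53617 clusters, 16098 had 1 symbol. Members and gene lists were chosen with earlier results of these data known. For a gene with several clusters (4 members), that of highest mean was used.

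Clusters above the 30th percentile of an array on at least 3 arrays (41374) were fitted with limma 3.58.1 in R 4.3.3, with a mean for each of 14 groups and 30 residual degrees of freedom, empirical Bayes moderation and Benjamini-Hochberg adjustment over all of them. Intervals are at 95%. The script was checked on simulated data. Arrays have no depth, and 3 per group limits precision. Values by array are given for SOX2 and the members of largest called change, 12 in all, other called members by all or some of their changes, and list genes by at most 4 per comparison in order of size. Same-numbered replicates deviated together (every correlation over 0.1) in 2 of 14 comparisons, MPA against P4 at 8 h and E2+MPA against E2+P4. With the replicate number as a block these called 0 and 10 members. Promoters are the 250 bases before each RefSeq start.

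Alternatives were no filter, array weights, each array's interquartile range as a covariate, a second quantile normalization, the replicate block, the mean of all clusters of a gene, the compared arrays only, a threshold of 0.0001 and leaving out each array.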

Additional observations from a re-analysis of the deposited data

Results flagged for a closer look

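For 9 changes, the progestin difference at 16 h differed from that at 4 h by an interaction test in limma (adjusted p of at most 0.05, values are the 16 h minus the 4 h difference on the log2 scale). With P4 they were 0.88 for FOXA3, -0.74 for SOX5, 0.69 for SOX9, 0.60 for FOXN2, 0.57 for SOX18 and -0.56 for FOXP1. With MPA they were -1.04 for SOX5, -0.59 for FOXP1 and 0.45 for FOXO3. The FOXO3 value was past the threshold by little (adjusted p = 0.0464) and was lost in 10 of the 12 fits that left out 1 array. In the 5 E2p E2+P4 16 h arrays, 12 members were tested for a single array far from the rest and none passed Dixon's value of 0.71. This test cannot flag 2 arrays that lie together, as replicates 2 and 5 did for FOXI1, so it says nothing on that division.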

How the results depend on the processing

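Of 126 called changes of members, none changed sign under any alternative and 84 held whichever compared array was left out. At a threshold of 0.0001 the members called were 1 for priming, 4, 4 and 6 at 4, 8 and 16 h of P4, 4, 7 and 6 at 4, 8 and 16 h of MPA, 4 for E2+P4, 7 for E2+MPA, 1 for E2+MPA against E2+P4, and 0 for both changes between 4 and 16 h and for vehicle over time. Calls over all clusters also fell at that threshold, from 3102 to 754 for priming and from 6549 to 2076 at 16 h of P4. On the compared arrays only the members called were 2 for priming, 5 at 4 h of P4, 2 at 4 h of MPA, 5 for E2+P4, 0 for E2+MPA against E2+P4 and 2 for the P4 change between 4 and 16 h, where fewer arrays estimate the spread, and 61 of the 126 changes no longer passed. Over all clusters these fits called 962 for priming, 735 at 4 h of P4 and 490 at 4 h of MPA, against 3102, 3270 and 3427. For E2+MPA against E2+P4 they called 18 in place of 2517. Array weights, whose estimation gave a convergence warning, called 14 for priming, 19 at 16 h of MPA (10 higher and 9 lower), 3 for E2, 10 and 7 for the P4 and MPA changes between 4 and 16 h and 6 for vehicle. Calls over all clusters rose as well, from 3102 to 6258 for priming and from 6611 to 10439 at 16 h of MPA. They rose from 2 to 656 for E2 and from 802 to 4602 for vehicle. With the interquartile range as covariate priming had 5, vehicle 2, and MPA at 16 h was 7 higher and 7 lower, against 4 and 8. With that covariate 3277 of all clusters passed for priming, 1766 for vehicle and 7660 at 16 h of MPA. A second quantile normalization gave vehicle 2 and no filter gave it 0, with 1090 and 678 of all clusters. The cause of these shifts was not tested.

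Leaving out each array in turn gave 4 to 7 for priming, 9 to 11, 7 to 9 and 13 to 14 for P4 at 4, 8 and 16 h, 8 to 14, 8 to 10 and 11 to 14 for MPA at 4, 8 and 16 h, 9 to 14 for E2+P4, 15 to 16 for E2+MPA, 5 to 12 for E2+MPA against E2+P4, 5 to 8 and 2 to 3 for the P4 and MPA changes between 4 and 16 h, 0 to 1 for vehicle, and 0 throughout for E2 and for MPA against P4 at 4, 8 and 16 h. Over all clusters these fits called 2073 to 3287 for priming and 1122 to 2993 for E2+MPA against E2+P4. With the replicate number as a block, E2+MPA against E2+P4 gave 10 and MPA at 4 h gave 11, no count moved by over 1.5 times, and 5 of the 126 changes no longer passed. Same-number correlations ran from -0.46 to 0.40. Without E2+P4 replicates 4 and 5, a setting chosen after seeing the data, E2+MPA against E2+P4 gave 10. That setting took 1 array from each side of the division seen for FOXI1 and does not test it. Other background corrections and slide or scan blocks were not run, since only RMA values were used.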
